A study of Drosophila melanogaster with 3 samples.

Results

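The cytoplasmic ribosomal protein genes of Drosophila melanogaster were examined for peaks of the E(spl)mgamma-HLH protein in embryo chromatin. They were taken by symbol, as every protein-coding gene of the Ensembl BDGP6 annotation whose name starts with RpL or RpS followed by a number or a P, which gave 92 genes of the 13945 protein-coding genes on the 6 main chromosome arms. Of these, 38 encode proteins of the small ribosomal subunit and 54 proteins of the large subunit, the stalk proteins and relatives whose names end in -like included. The territory of a gene was its body together with the 1 kb upstream of it, and a peak was assigned to a gene when its summit fell in that territory.

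The data came from chromatin immunoprecipitation with sequencing (ChIP-seq) of whole embryos of both sexes, 0 to 16 hours old, in 3 biological replicates of 1 group. The embryos were of a stable transgenic line that makes E(spl)mgamma-HLH with GFP at its C terminus, and the sample descriptions give an anti-GFP antibody, while the antibody field names E(spl)mγ-HLH. The line is called Esplmgamma-HLH-GFP in the labels, which give no promoter or site of the insertion. No second genotype or untagged embryo was analysed here, so each share below is set beside the same share over all protein-coding genes, and no test over samples could be made. Whole embryos mix all cell types, so a peak says nothing of the cells that carry it.

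E(spl)mgamma-HLH is a basic helix-loop-helix repressor that Notch signalling induces and that acts with the corepressor Groucho, and its gene lies in the Enhancer of split complex. Proteins of this kind bind E-box, class C and N-box sites. Cytoplasmic ribosomal proteins are made in near equal amounts in every growing cell, and loss of a single copy of many of their genes gives the slow-growing Minute phenotype in flies. Their promoters often carry a polypyrimidine initiator in place of the usual one, together with sites for the promoter factors DREF and M1BP, and their introns often hold small nucleolar RNA (snoRNA) genes.

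The reproducible set held 4524 peaks, and equalled the 4524 peaks of highest signal in the pooled list. The lists of replicates 1, 2 and 3 held 23367, 30000 and 24251 peaks, background regions included. The length of the replicate 2 list is a round number and can be a limit of the calling step, so a gene not listed there may have had a weaker call. The 4524 peaks of highest signal in each list are called its top peaks below, and ranks count from 1 at the highest signal of a list. Depth is unknown, and signal, a coverage value that the authors' caller gave each peak, orders peaks within a list only. The tagged gene itself, E(spl)mgamma-HLH, had 0 reproducible summits in its territory and 0, 1 and 0 top summits in replicates 1 to 3.

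Ribosomal protein genes carried E(spl)mgamma-HLH peaks more often than protein-coding genes in general. A reproducible peak was present at 54 of the 92 genes (58.7%), against 26.4% of all protein-coding genes. Their territories were short, with a median of 2315 bp against 3166 bp for all protein-coding genes. Among the 10212 protein-coding genes whose territory lay in the same length range of 1304 to 5677 bp, 20.2% had a reproducible peak.

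The count repeated in each replicate taken alone. Top peaks lay at 59, 55 and 50 ribosomal protein genes in replicates 1, 2 and 3, which is 64.1, 59.8 and 54.3%, a mean of 59.4% ± 4.9 (SD, n = 3). Over all protein-coding genes the shares were 26.7, 25 and 26.5%, a mean of 26.1% ± 0.89 (SD, n = 3). The lowest replicate of the ribosomal protein genes lay above the highest replicate of all protein-coding genes. A top peak in all 3 replicates was present at 44 ribosomal protein genes (47.8%), against 20.7% of all protein-coding genes and 15.4% of those in the length range. With 1 replicate left out, peaks that the other two shared lay at 45, 49 and 48 ribosomal protein genes without replicate 1, 2 and 3, against 21.4, 23.2 and 21.2% of all protein-coding genes. Top peaks in both other replicates lay at the same numbers, 45, 49 and 48, against 21.9, 23.6 and 21.7%. With background regions included, a peak was listed at 78, 83 and 82 members in replicates 1, 2 and 3, against 58.6, 63.8 and 59.9% of all protein-coding genes.

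**Figure D1:**
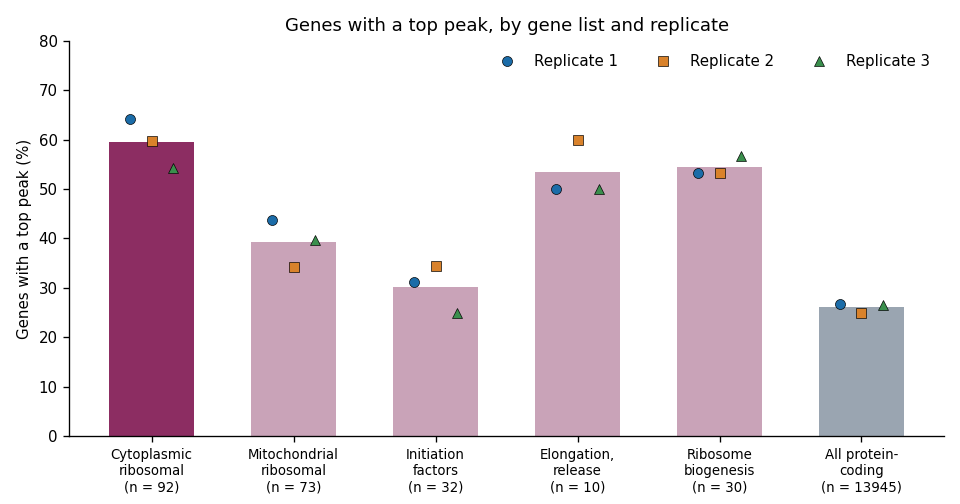
Genes with a top peak (y axis, percent of the genes of each list) for cytoplasmic ribosomal protein genes, 4 other gene lists and all protein-coding genes (x axis). Bars are means of 3 replicates and points are the replicates. The 3 points of the cytoplasmic ribosomal protein genes lie between 54.3 and 64.1%, and those of all protein-coding genes between 25 and 26.7%.

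Both subunits took part to a like degree. Of the small subunit genes 22 of 38 (57.9%) had a reproducible peak, and 18 had a top peak in all 3 replicates. Of the large subunit genes 32 of 54 (59.3%) had a reproducible peak, and 26 had a top peak in all 3 replicates. By arm, peaks lay at 10 of 14 genes on X, 9 of 19 on 2L, 11 of 21 on 2R, 10 of 14 on 3L and 13 of 23 on 3R. Over all protein-coding genes of these arms the shares were 27.6, 25, 24.2, 27.9 and 27.6%. RpS3A, the only member on chromosome 4, had a peak at rank 1997, where 11.2% of 80 protein-coding genes had one.

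The peaks spread over the whole reproducible set and were not concentrated at its top. Their ranks ran from 134 to 4255 with a median of 1673.5, against 1721 for the best peaks of other protein-coding genes. Cut by signal into 4 equal parts, the set held 16, 17, 13 and 8 of the 54 genes from its strongest to its weakest part. The stronger 50% of the set held 33 (35.9% of members), against 16.2% of all protein-coding genes.

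RpL32, a large subunit gene long used as a reference transcript in fly expression assays, had the highest peak (chr3R:30045229-30046161, minus strand). Its peak ranked 124, 204 and 106 in replicates 1 to 3, with signals of 283, 231 and 278. The summit lay at -196 bp from its transcription start site (TSS), where negative positions are upstream, and nearer to the start of the divergent gene CG7943. RpS27, a small subunit gene (chr3R:25245955-25247514, minus strand), ranked 93, 439 and 161, with signals of 327, 168 and 239 and a summit at -23 bp. RpL34b, of the large subunit (chr3R:9400237-9401226, minus strand), ranked 102, 274 and 206, with signals of 308, 202 and 216 and a summit at -70 bp. Each of these peaks was among the 500 strongest of every replicate, and all 3 ranked lower in replicate 2 than in both other replicates.

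RpL7 of the large subunit (chr2L:10201004-10202321, plus strand) followed, with ranks of 367, 246 and 386 and a summit 29 bp inside the gene. RpL23A, which sits at the exit of the nascent chain tunnel (chr3L:1666288-1668654, minus strand), had ranks of 285, 636 and 414. RpS20 of the small subunit head (chr3R:20822181-20823356, plus strand) had ranks of 366, 466 and 395. All 3 genes were among the 1000 strongest peaks of each replicate, and RpL7 alone of them ranked highest in replicate 2.

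The remaining genes of the leading 10 were RpL41, RpS29, RpL14 and RpL28. RpL41, which encodes a very short basic peptide of the large subunit (chr2R:24903416-24903935, minus strand), had ranks of 604, 782 and 597. RpS29, a zinc-binding small subunit protein (chr3R:9778042-9779528, plus strand), had ranks of 549, 986 and 811. RpL14 (chr3L:8601006-8602392, plus strand) had ranks of 572, 1093 and 943, and RpL28 (chr3L:3220911-3222960, minus strand) had ranks of 641, 891 and 1185. The leading 10 genes thus held 7 genes of the large and 3 of the small subunit.

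**Figure D2:**
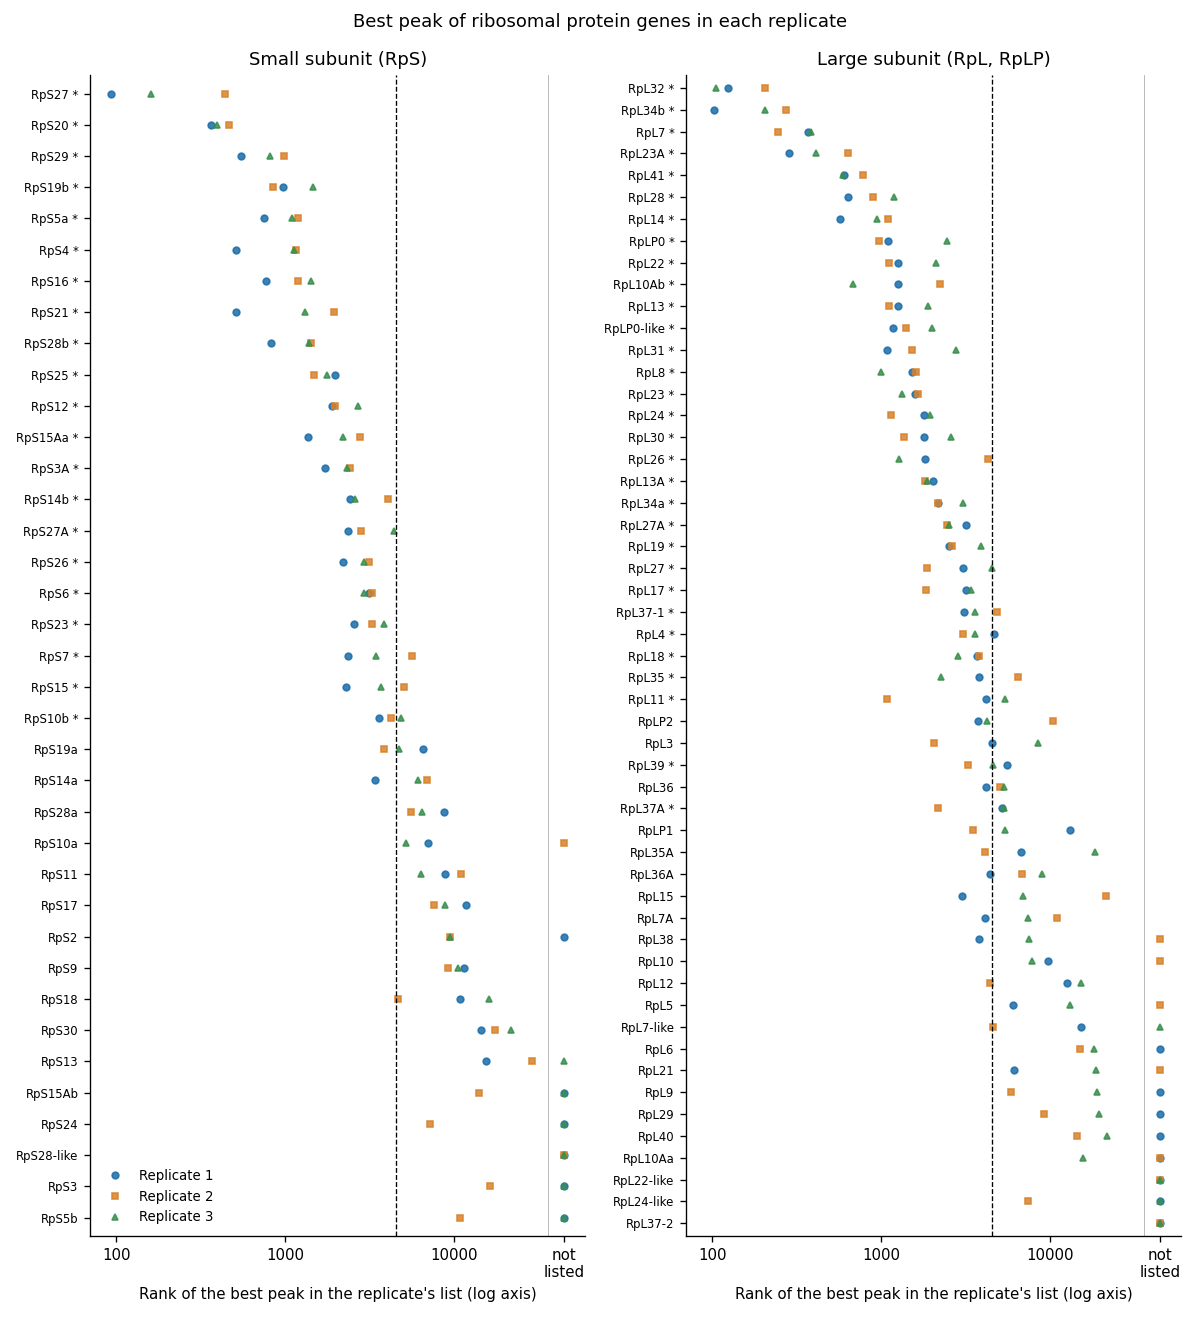
Rank of the best peak of ribosomal protein genes in each replicate (x axis, log scale, 1 is the strongest), for small subunit genes on the left and large subunit genes on the right. An asterisk marks a gene with a reproducible peak, the dashed line is rank 4524 and the column at the right edge holds genes with no listed peak. RpS27 and RpL32 head the panels, and genes with a top peak in all 3 replicates have every point left of the line.

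The promoters of 6 members with a peak and 3 without one are shown to set the sequence elements beside the peaks. Each runs from 100 bp before to 20 bp into the gene on the gene's strand, from the RefSeq genome of the dm6 build. Capitals mark TATCGATA, the site of DREF, and GGTCACAC, the core of Motif 1 that M1BP binds, on either strand. They also mark the polypyrimidine initiator on the gene's strand within 10 bp of the TSS, with overlapping matches run together. Initiator matches farther from the TSS, as in RpL34a and RpS5b, are not marked or counted. RpS25 and RpL6 were picked for display after their values were seen.
The first 6, with a reproducible peak, lie at chr3R:25247495-25247614 (minus strand), chr3R:9401207-9401326 (minus strand), chr3L:3222941-3223060 (minus strand), chr3R:11216268-11216387 (minus strand), chrX:17148245-17148364 (minus strand) and chr3R:26059248-26059367 (minus strand).
RpS27: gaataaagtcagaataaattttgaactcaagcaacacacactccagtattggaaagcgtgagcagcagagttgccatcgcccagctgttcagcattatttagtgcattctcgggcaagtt
RpL34b: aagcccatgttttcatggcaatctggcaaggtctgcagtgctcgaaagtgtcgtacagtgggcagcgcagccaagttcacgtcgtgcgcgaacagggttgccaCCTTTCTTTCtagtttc
RpL28: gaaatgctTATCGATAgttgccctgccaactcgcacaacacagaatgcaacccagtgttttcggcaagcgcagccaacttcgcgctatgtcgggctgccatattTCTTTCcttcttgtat
RpS25: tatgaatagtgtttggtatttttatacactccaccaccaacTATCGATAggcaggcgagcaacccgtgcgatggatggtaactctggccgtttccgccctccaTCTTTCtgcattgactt
RpS5a: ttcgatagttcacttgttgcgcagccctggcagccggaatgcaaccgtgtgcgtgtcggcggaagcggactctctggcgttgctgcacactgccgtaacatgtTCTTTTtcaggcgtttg
RpL34a: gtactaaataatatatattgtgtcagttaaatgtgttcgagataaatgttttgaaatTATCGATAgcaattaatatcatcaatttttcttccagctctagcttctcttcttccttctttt
The last 3, without a reproducible peak, lie at chr3R:14901544-14901663 (minus strand), chr3R:31596185-31596304 (minus strand) and chr3R:23358712-23358831 (plus strand).
RpS5b: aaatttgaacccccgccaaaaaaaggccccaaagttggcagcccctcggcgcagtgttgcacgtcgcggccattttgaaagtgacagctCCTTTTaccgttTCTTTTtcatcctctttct
RpL6: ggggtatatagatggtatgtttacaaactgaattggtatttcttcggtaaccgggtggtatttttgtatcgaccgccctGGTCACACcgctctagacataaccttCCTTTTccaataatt
RpS3: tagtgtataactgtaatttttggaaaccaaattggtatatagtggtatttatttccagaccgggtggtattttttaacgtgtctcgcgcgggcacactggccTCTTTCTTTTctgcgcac
The initiator was found in RpL34b, RpL28, RpS25 and RpS5a, which had a peak, and in RpS5b, RpL6 and RpS3, which had none. The DREF site was present in RpL28, RpS25 and RpL34a, and the Motif 1 core in RpL6. RpS27, with the second strongest peak of the family, held none of the 3 elements in this window.

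Summits at ribosomal protein genes lay closer to the start site than at other genes. The median distance of the best summit from the gene's own TSS was 65 bp (quartiles 25 and 99 bp), against 212 bp at other protein-coding genes with a peak and 141 bp at those in the length range. Within 100 bp lay 40 of 54 summits (74.1%), against 24.5% at other protein-coding genes, 34.9% at those in the length range and 20.7% at mitochondrial ribosomal protein genes. In the top peaks of replicates 1, 2 and 3 the median distance was 75, 35 and 63.5 bp (mean 57.8 ± 20.6 bp, SD, n = 3), against 216.5, 212 and 211 bp (mean 213 ± 2.93 bp, SD, n = 3) at other protein-coding genes. Every replicate of the ribosomal protein genes lay below every replicate of the other genes.

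Of the 54 best summits, 47 lay upstream and 7 downstream of the gene's own start. Near the start, the summits of other protein-coding genes also lay mostly upstream. Within 500 bp of the start lay 50 of the 54 (92.6%), against 70.6% at other protein-coding genes and 87.8% at those in the length range. At mitochondrial ribosomal protein genes this share was 96.6%. The position was similar in the replicates. The reproducible set was derived from these same replicates, which favours small shifts, and no shifts of other genes are given beside them. The best summit of a replicate lay a median of 11.5, 17 and 18 bp from the reproducible summit in replicates 1, 2 and 3, and within 100 bp of it at 52, 51 and 52 of the 54 genes. With the gene body alone as territory, 10 members (10.9%) had a peak, against 11.3% of all protein-coding genes.

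**Figure D3:**
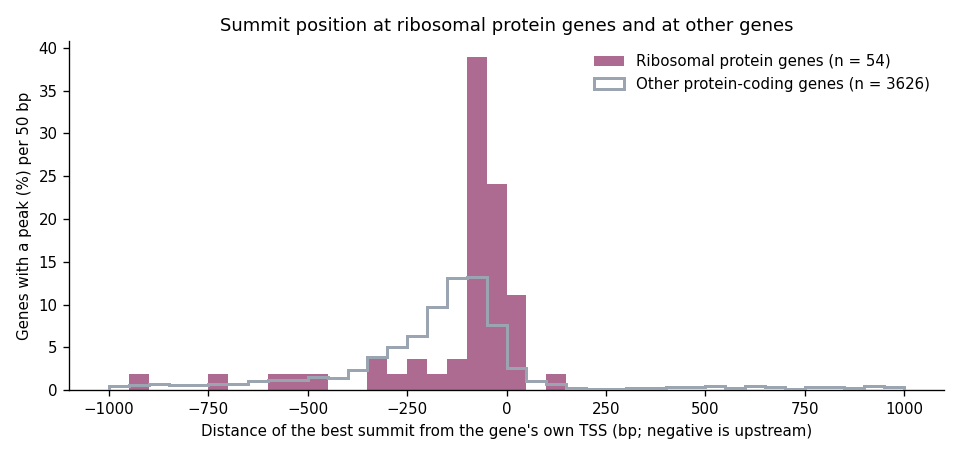
Distance of the best reproducible summit from the gene's own TSS (x axis, bp, negative is upstream) as a percent of genes with a peak per 50 bp (y axis), for 54 ribosomal protein genes (filled) and 3626 other protein-coding genes (outline). The filled histogram is concentrated in the last 100 bp before the start, and the outline is broader and reaches farther upstream.

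Many of the peaks lay between divergent genes, where a peak cannot be given to one gene. For 42 of the 54 genes (77.8%) the gene's own TSS was the nearest protein-coding TSS to the summit, against 67.7% of other protein-coding genes with a peak and 61.3% of those in the length range, and the summits of these 42 had a median position of -52.5 bp (range -267 to 126 bp). For the other 12 the nearest start was that of a neighbour. Among them were RpLP0-like, RpS15, RpL23, RpL18, RpL14, RpS20, RpS19b, RpL32, RpL35, RpS6 and RpS28b. RpS6, whose protein is the classic substrate of S6 kinase, had its summit at -493 bp (ranks 3157, 3267 and 2948), beside the start of bys, which encodes a ribosome biogenesis factor. RpL14 had its summit at -79 bp, nearer to the start of Nelf-E, a subunit of the negative elongation factor. RpS19b had the farthest summit, at -909 bp and nearest to CG5854.

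A divergent protein-coding TSS lay within 1 kb of 55 members, and 36 of these had a peak (65.5%), against 43.1% of all protein-coding genes with a divergent TSS in that range. Of the 37 members with none, 18 had a peak (48.6%), against 17.3% of all protein-coding genes with none. The peak of RpL28, at -56 bp, also fell in the territory of eIF1, a translation initiation factor gene that starts 381 bp away. RpL13, named here after its values were seen, starts 84 bp from Dref, the gene for DREF, and its peak had ranks of 1266, 1116 and 1906 with a summit at -25 bp. Of the 54 best peaks, 37 lay in the territory of another protein-coding gene too and 17 did not. The same share was not computed for other genes with a peak. No best peak was shared by a pair of ribosomal protein genes. Of the 28 members that hold snoRNA genes, 21 had a peak (75%), against 55 of all 84 protein-coding genes that hold them (65.5%), the members included. Of the 64 members without, 33 had one (51.6%), against 26.2% of all protein-coding genes without.

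Of the 54 members with a peak, 50 had 1 reproducible summit (92.6%), and RpL34b, RpS12, RpL26 and RpS28b had 2. A single summit was present at 75.6% of other protein-coding genes with a peak and at 90.6% of those in the length range, near the members' share. RpS12, whose protein takes part in cell competition in flies, had a best summit at -67 bp with ranks of 1883, 1971 and 2718. RpL26, of the large subunit, had ranks of 1830, 4285 and 1283, the lowest in replicate 2. The best summit of RpS28b lay at -710 bp, nearest to l(1)G0320. Its best peaks in replicates 1 to 3 had ranks of 826, 1426 and 1390. Their summits lay 685, 74 and 47 bp from that position, so rank 826 in replicate 1 is not of the peak at -710 bp.

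Genes chosen for known roles of their products fell on both sides. Among the stalk genes, whose proteins recruit elongation factors to the ribosome, RpLP0 had a peak at -25 bp with ranks of 1102, 972 and 2472. RpLP2 lay just outside the reproducible set, at rank 4603 of the pooled list, with ranks of 3750, 10390 and 4268. RpLP1 had ranks of 13110, 3524 and 5432 and no reproducible peak. The order of the 3 stalk genes by rank was not the same in every replicate, since RpLP1 ranked above RpLP2 in replicate 2 only.

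RpL5 and RpL11 encode the proteins that bind 5S ribosomal RNA. RpL11 had a reproducible peak at -101 bp, with ranks of 4196, 1078 and 5454. RpL5 had none, with ranks of 6005 and 13194 in replicates 1 and 3 and no listed peak in replicate 2. RpS27A and RpL40 encode ribosomal proteins fused to ubiquitin. RpS27A had a peak at -79 bp with ranks of 2341, 2808 and 4412, and RpL40 had none, with ranks of 14433 and 21898 in replicates 2 and 3 and no listed peak in replicate 1. In each of these functional pairs a single gene had a reproducible peak.

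RpL19, at a bridge between the subunits, had a peak at -33 bp with ranks of 2538, 2641 and 3893. RpS2 and RpS3, which line the entry channel for messenger RNA, had none. RpS2 ranked 9440 and 9508 in replicates 2 and 3 and was not listed in replicate 1. RpS3 was listed in replicate 2 only, at rank 16379. RpS3 and RpS2 thus fell outside the top peaks in every replicate.

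The replicates were compared gene by gene. All 54 members with a reproducible peak had a listed peak in each replicate, 44 had a top peak in all 3, 8 in 2 and 2 in 1. Among the 8 were RpL11, RpS15, RpS7, RpL4, RpL35, RpL37-1 and RpS10b, and the 2 were RpL37A and RpL39. RpL37A ranked 5216, 2179 and 5358, and RpL39 ranked 5545, 3252 and 4593, so both were top peaks in replicate 2 alone. RpL35 went the other way, with rank 6443 in replicate 2 and 3784 and 2259 in replicates 1 and 3. RpS10b, at rank 4255, was the last member inside the set and RpLP2, at rank 4603, the first outside. Of the members, 71 were listed in all 3 replicates, against 43.2% of all protein-coding genes. Across these 71, Spearman's rho of the ranks was 0.813 for replicates 1 and 2, 0.916 for replicates 1 and 3 and 0.796 for replicates 2 and 3. These values are across genes, which are not independent, and describe lists that were called against a control.

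Of the 38 members without a reproducible peak, 26 were listed in the pooled list, at ranks 4603 to 18875, and 16 of these had a q-value under 0.05 there. Over all members, 80 were listed in the pooled list and 70 had a peak at q under 0.05, against 56.8 and 37.9% of all protein-coding genes. A top peak was present in 2 replicates at RpLP2 and RpL3, in 1 replicate at 10 genes and in none at 26. RpS28-like, RpL37-2 and RpL22-like had no peak in any list, and RpL22-like is known for expression in the testis. RpS5b, RpL10Aa, RpL24-like, RpS15Ab, RpS24 and RpS3 were listed in 1 replicate only.

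Related ribosomal protein genes were set side by side in 13 pairs. Of the 26 paired genes 15 had a peak (57.7%), close to the share of the whole family. In 11 of 13 pairs of related genes 1 member had a reproducible peak, in 2 pairs both had one, and in no pair were both without. Of the 66 members in no pair, 39 had a peak (59.1%). Both members were bound in the pair RpL34b and RpL34a, where RpL34a had ranks of 2178, 2184 and 3037 and a summit at -81 bp. The other such pair was RpLP0 and RpLP0-like, where RpLP0-like, a relative of the yeast assembly factor Mrt4, had ranks of 1179, 1402 and 1989. Its summit was nearer to the start of 14-3-3zeta than to its own.

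The other 11 pairs are given by rank in each replicate, as a description, since the replicate lists also went into the choice of the reproducible peaks. RpS5a, the broadly expressed copy, ranked 752, 1188 and 1093 with a summit at -81 bp. RpS5b, the ovary-enriched copy, was listed in replicate 2 only, at rank 10807. RpL22 ranked 1256, 1108 and 2109, and RpL22-like was not listed. RpS10b ranked 3607, 4231 and 4831, and RpS10a, known from the germ line, ranked 6980 and 5214 in replicates 1 and 3 and was not listed in replicate 2.

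RpL10Ab ranked 1262, 2245 and 680, and RpL10Aa was listed in replicate 3 only, at rank 15728. RpS15Aa ranked 1363, 2775 and 2194, and RpS15Ab was listed in replicate 2 only, at rank 14076. RpS28b stood above RpS28a, which ranked 8764, 5572 and 6443. RpL37-1 ranked 3080, 4826 and 3579, and RpL37-2 was not listed. In each of these 4 pairs the second gene had no top peak in any replicate.

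RpS14a and RpS14b are tandem copies on X, with RpS14b at ranks 2431, 4062 and 2587 and a summit at -53 bp. RpS14a ranked 3423, 6930 and 6144, a top peak in replicate 1. RpS19b ranked 976, 853 and 1454, with the distant summit given above, and RpS19a ranked 6587, 3848 and 4729, a top peak in replicate 2. The partners RpL7-like and RpL24-like are named after ribosomal proteins and resemble the yeast assembly factors Rlp7 and Rlp24. RpL7-like ranked 15329 and 4614 in replicates 1 and 2, against RpL7 near the head of every list. RpL24-like was listed in replicate 2 only, at rank 7407, and RpL24 ranked 1800, 1150 and 1960 with a summit at -4 bp. Of the 5 members whose symbols end in -like, 1 had a peak, and without them the count was 53 of 87.

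**Figure D4:**
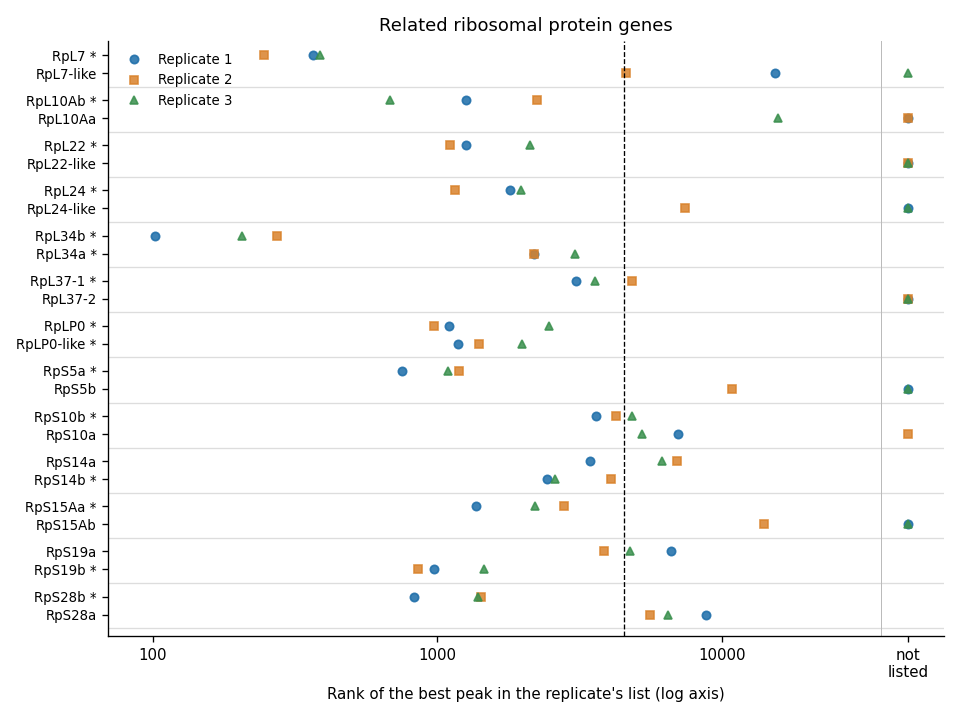
Rank of the best peak in each replicate (x axis, log scale) for both genes of 13 pairs of related ribosomal protein genes (y axis, pairs divided by lines). An asterisk marks a reproducible peak, the dashed line is rank 4524, and genes with no listed peak stand at the right. In 11 of the 13 pairs a single gene is marked.

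The DREF and Motif 1 elements and the E-box and class C sites of E(spl) proteins were each more frequent at the members' summits than at other promoter summits. The DREF element was the most frequent of the 6 motifs sought within 50 bp of the members' summits. In windows of 100 bp to each side the N-box CACNAG was at 29.6% of these summits and the DREF element at 27.8%. In windows that reach 50 bp to each side of the 54 best summits, TATCGATA, which DREF binds, was present at 14 (25.9%), against 3.39% of 2097 other reproducible summits within 500 bp of a TSS. GGTCACAC, the Motif 1 core, was present at 11.1%, against 1.38%. Both were sought on both strands, and TATCGATA is its own reverse complement. Among top peaks of the replicates with a summit within 500 bp of the gene's TSS, TATCGATA was present at a mean of 20.8% ± 3.31 of the members' summits, against 3.74% ± 0.425 of those of other genes (SD, n = 3 each). GGTCACAC was present at 9.12% ± 1.63 and 1.58% ± 0.257 (SD, n = 3 each) of the members' and the other genes' summits. For both elements the replicates of the 2 sets did not overlap. The replicates share many promoters and the same genome sequence, so the SDs of motif shares do not measure a biological spread. The summit sets also differed in position. The median distance from the gene's own TSS was 65 bp at members, against 212 bp at all other protein-coding genes with a peak. Of the 54 members' summits 50 lay within 500 bp of their own TSS, and all 54 were counted. The part of position in the motif shares was not tested.

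The E-box CACGTG, a high-affinity site of E(spl) proteins, was present at 3 of the 54 summits (5.56%), against 1.0% of other promoter summits. The class C site CACGCG was present at 4 (7.41%), against 1.19%. In the same replicate windows CACGTG was present at 3.9% ± 0.423 of the members' summits, against 1.01% ± 0.267 of those of other genes, and CACGCG at 9.76% ± 1.07, against 1.32% ± 0.469 (SD, n = 3 each). For both sites too the replicates of the 2 sets did not overlap, on few members. From replicate 1 to 3 the member shares went from 3.51 to 4.35% for CACGTG and from 8.77 to 10.9% for CACGCG. Over the same replicates the member summits counted fell from 57 to 46, and the number of them with each site stayed the same. These SDs are thus no measure of biological spread. The N-box CACNAG was present at 13.0%, against 11.8%. The TATA box, sought as TATAAA, was present at 9.26%, against 19%. Of these 4, the N-box shares differed least, and its replicate means of 13.1% ± 3.73 and 11.1% ± 0.404 (SD, n = 3 each), for members and other genes, lay within the spread of the members' replicates. Base composition moved with these shares. The windows at members' summits had a GC content of 44.5% ± 9.78 (SD over 54 windows), against 35.6% ± 9.49 (SD over 2097 windows), and its part in the motif shares was not tested. A match is a match of letters and not a measured site.

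Promoters of members with and without a peak were compared next, with no test of the differences. At members with several starts, the TSS was the one nearest to the best summit, or the farthest upstream where there was no peak. The promoters of the member groups were thus picked by different rules. From 250 bp before to 50 bp after the TSS, TATCGATA was present at 31.5% of members with a peak and 26.3% of members without, beside 9.04% of all protein-coding genes. GGTCACAC was present at 18.5 and 13.2% of these member groups, beside 7.37% of all protein-coding genes. The polypyrimidine initiator was sought on the gene's strand within 10 bp of the TSS as any of 4 hexamers. These were CCTTTC along with its variant CCTTTT, and TCTTTC along with its variant TCTTTT. It was present at 53.7% of members with a peak and 50% of members without, beside 2.89% of all protein-coding genes. CACGCG was present at 18.5% of members with a peak and 7.89% of members without, which are 10 and 3 genes, beside 6.3% of all protein-coding genes. CACNAG was present at 31.5% of members with a peak and 18.4% of members without, beside 29.7% of all protein-coding genes. CACGTG was present at 9.26 and 7.89% of these member groups, beside 4.13%. TATAAA was present at 48.1 and 47.4%, beside 45.5%, so its lower share at the members' summits was not seen over their promoters. At any annotated TSS of the gene the initiator was present at 87% of members with a peak and 73.7% of members without, beside 4.09% of all protein-coding genes. There CACNAG was present at 37% and 18.4%, beside 36.3%. Protein-coding genes with a reproducible peak are the closer comparison for members with one. Among them TATCGATA was present at 12.9%, GGTCACAC at 9.65%, the initiator at 3.67%, CACGCG at 7.96% and CACNAG at 30.8%, in the windows first given. At any TSS they had CACNAG at 43.2%, above the 37% of members with a peak.

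Read the other way, 17 of the 27 members with TATCGATA had a peak (63.0%), as did 10 of 15 with GGTCACAC (66.7%) and 29 of the 53 with neither (54.7%). A peak was present at 29 of the 48 members with the initiator (60.4%) and 25 of the 44 without it (56.8%). Genes outside the family with the same elements had peaks less often, at 37.0% with TATCGATA, 34.1% with GGTCACAC and 29.9% with the initiator.

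**Figure D5:**
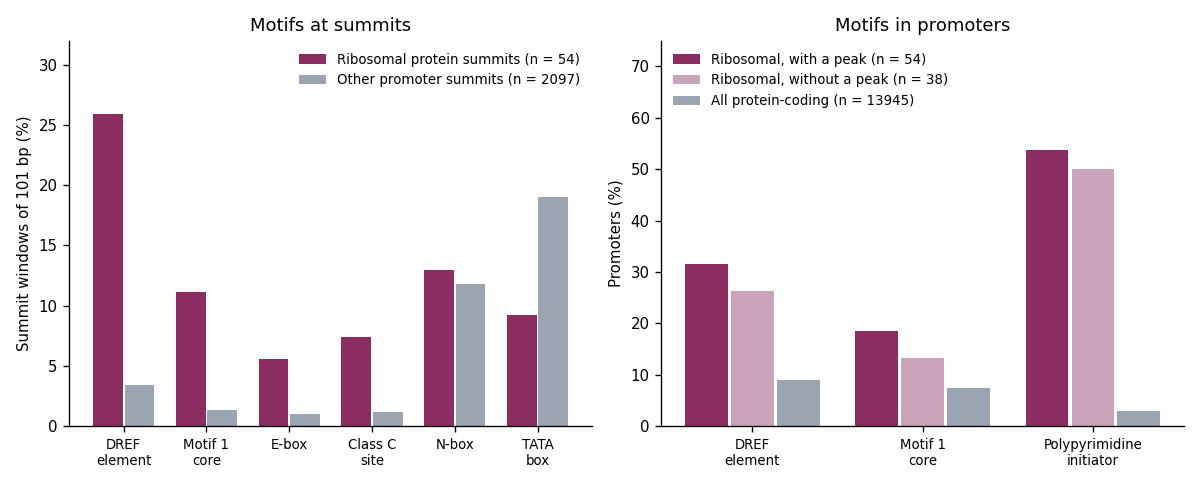
Percent of summit windows of 50 bp to each side (left) and of promoters (right) that hold each element (x axis). On the left, 54 ribosomal protein summits stand beside 2097 other promoter summits. On the right, ribosomal protein genes with and without a peak stand beside all protein-coding genes, with the DREF element and Motif 1 core sought from 250 bp before to 50 bp after the start and the initiator within 10 bp. The DREF element is at 25.9% of ribosomal protein summits and 3.39% of the others, and the initiator at 53.7 and 50% of the ribosomal protein promoters with and without a peak.

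Other genes of protein synthesis were set beside the family. Of 73 mitochondrial ribosomal protein genes, which serve the separate ribosomes of mitochondria, 29 had a reproducible peak (39.7%), and top peaks lay at 43.8, 34.2 and 39.7% in replicates 1 to 3. Every replicate of these genes lay below the replicates of the cytoplasmic ribosomal protein genes given above. Their summits were farther out, at a median of 153 bp from the start. Of 32 translation initiation factor genes 11 had a peak (34.4%), eIF6, which keeps the subunits apart, among them at ranks 22, 48 and 28.

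Of 10 elongation and release factor genes 6 had a peak (60.0%), eEF1alpha1, which brings aminoacyl-tRNA to the ribosome, among them at ranks 647, 1642 and 1862. Of 30 genes listed for ribosome biogenesis 17 had a peak (56.7%), Nopp140, a nucleolar protein, among them at ranks 724, 2550 and 1839. That list also holds Rrp1, whose product is a DNA repair endonuclease, and Myc, a regulator of growth. Both lists had shares near that of the ribosomal protein genes, on few genes. Rack1, a small subunit protein that the symbol rule leaves out, had a peak at -34 bp with ranks of 1886, 3159 and 2165, and sta, the gene for the protein also known as RpSA, had none.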

How the data were processed

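E(spl)mgamma-HLH-GFP ChIP-seq was measured in 3 replicates of whole embryos, and the deposited dm6 peak lists were used. A list for each replicate and a pooled list were called against a control, per the deposited text records, and the reproducible set was derived from the pooled and the 3 replicate lists. The peak caller is not given in the sources used here, nor are the aligner and the reproducibility cutoff. The signal of each peak is the authors' own value, not normalized between lists, and the q-value is deposited on the −log10 scale, with a ceiling that many peaks share. Summits are the deposited offsets.

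Genes came from the Ensembl release 115 annotation (BDGP6.54) and sequence from the RefSeq genome of the same build. Ribosomal protein genes, pairs and gene lists were chosen with earlier results of these data known. Peaks were assigned by summit to the gene body and 1 kb upstream, and the best peak of a gene is the one of highest signal. Where a gene has several start sites, the one nearest to its best summit was used. Members without a reproducible peak have no best summit, and for them the start farthest upstream was used. Counts, shares and medians were computed in Python 3.11.15 with pandas 2.3.3 and numpy 2.4.6, and checked on simulated peaks. With 1 group, no test over samples exists.

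Genes were named by rule: the 10 of highest signal, the 13 pairs, 12 genes of known role, genes with the most summits, and genes with a reproducible peak but without a top peak in every replicate or with none in any list. Other genes named were chosen after their values were seen. Individual results of some members are not reported here, and all members enter the counts. Alternatives were other peak sets, gene assignments, windows and leaving out each replicate.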

Additional observations from a re-analysis of the deposited data

How the results depend on the processing

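Of 38 alternative settings for the main counts and medians, 28 stayed within 1.5 times the count or 1 SD over replicates. These are not independent checks. The top of the pooled list is the reproducible set itself, so its count could not differ. Counts of single replicates, and means with a replicate left out, were set beside a mean of the same replicates. The count of 54 genes with a reproducible peak was 33 in the stronger 50% of the set by signal and 10 with the gene body alone. The count of 44 genes with a top peak in all 3 replicates was 71 when every listed peak was allowed. The median percentile of the best peak, 63.0 within the reproducible set, was 89.4, 89.8 and 85.8 in the full lists of replicates 1 to 3 and 86.0 in the pooled list, which hold background regions. The median distance was 35 bp in replicate 2 alone. In the stronger 50% of the set, 25 genes had their own TSS nearest and 31 a summit within 500 bp, since fewer peaks enter. Leaving out a replicate gave 45 to 49 genes with a top peak that both other replicates shared, since no reproducible set was derived again. It gave a mean of 52.5 to 57.0 genes with a top peak, and 45 to 49 genes with a top peak in both other replicates. Of 14 settings for single motifs, 4 left the Wilson 95% interval of the main share: CACGTG at any TSS (16.3%), CACNAG and TATAAA in windows of 100 bp to each side (29.6 and 24.1%) and the initiator at any TSS (81.5%). Within that interval, which is wide at these counts, CACGCG and CACGTG went to 14.8 and 9.26% of summits in the wider windows. No paired analysis was possible because the samples form 1 group. The lists give no depth, and an unlisted gene was not called in that list.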

Other observations

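Several ribosomal protein genes near a centromere were listed in replicates 1 and 3 but ranked low or were missing in replicate 2. RpL15, 0.842 Mb from the centromeric end of 3L, ranked 3028 and 6931 in replicates 1 and 3 and 21626 in replicate 2. RpL5 and RpL21, 0.977 and 1.27 Mb from that of 2L, were listed in replicates 1 and 3 only, as was RpL38, 4.52 Mb from that of 2R. RpL30, 4.5 Mb from the end of 2L, ranked 1802, 1376 and 2593. Within 2 Mb of a centromeric end, a limit chosen after these values were seen, 50.5, 19 and 46.7% of 105 protein-coding genes had a listed peak in replicates 1, 2 and 3. Farther along the major autosome arms the shares were 59.3, 63.2 and 59.9% of 11564 genes. Within 2 Mb, where RpL15, RpL5 and RpL21 lie, the low value of replicate 2 was thus shared by other genes, and its cause was not tested. RpL38 lies outside that limit, so this comparison does not cover it.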
